A study of Mus musculus with 4 samples.

Results

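The 9 genes described here are Ccn1, Ccn2, Thbs1, Amotl2, Ankrd1, Acta2, Tagln, Cnn1 and Myl9, which are widely used readouts of the transcription factor SRF and of the coactivator YAP. They were chosen by symbol, as genes whose probe sets carry exactly 1 gene symbol in the platform annotation, and they account for 9 of the 18193 genes and 16 of the 45101 probe sets in the table. The arrays held total RNA of CGR8 cells, a mouse embryonic stem (ES) cell line, grown on gelatin in medium with serum replacement. Cells for 2 arrays stayed in leukemia inhibitory factor (LIF, 1000 U/ml), and those for the other 2 were moved, a day after passage, to medium lacking LIF, with RNA taken after 2 days. CGR8 is a single line. Separate cultures are not stated for the arrays of either group, so every p-value reflects the spread between these arrays alone, which may be technical. All values are MAS5 signals, which are linear intensities that the authors scaled to a common mean on each array.

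SRF binds a DNA element called the CArG box. Its coactivators Mrtfa and Mrtfb are held in the cytoplasm by monomeric actin and enter the nucleus when actin is assembled into filaments, after which genes of the contractile apparatus are transcribed. YAP and its relative TAZ (Wwtr1) are kept out of the nucleus by the Hippo kinases and, when active, bind DNA through the TEAD factors and raise a set of matricellular and feedback genes. Cells that spread and put their cytoskeleton under tension tend to activate both routes, and several genes, Ccn1 and Ccn2 among them, respond to both.

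The arrays numbered 1 and 2 in each group stood apart in several technical measures. The 18S ribosomal RNA control read 462 and 451 (LIF, then LIF-free) on the arrays numbered 1, against 5150.4 and 2990.4 on the others, and the ratio of 3′ to 5′ Actb signal was 1.32 and 1.44 on the former and 1.83 and 1.77 on the latter. Median signals were 69.9 and 59.6 on the LIF arrays and 95.5 and 65.5 on the LIF-free arrays. What the numbers stand for is not stated, so each change is also given within each number, and the part of these differences in the member values was not tested.

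Mean log2 signals of all 9 genes were higher without LIF, as were those of 59.4% of tested genes, but none passed the limma test with Benjamini-Hochberg adjustment over the 14445 genes tested. Changes ranged from 0.66 to 2.27 on the log2 scale, and the smallest adjusted p was 0.070, for Ccn2. The test called 0.0485% of all tested genes higher without LIF (7 genes) and 0.0969% lower, a share so small that 0 of 9 says little about the members. The median change of the members was 1.54, beside 0.09 over all tested genes. Members and the lists below were chosen with earlier results of these data known. Setting them beside shares of all tested genes or probe sets is therefore description only. 8 of the members lay above the 90th percentile of all changes, which was 0.93. In 6 of the 9 (Ccn1, Ccn2, Thbs1, Amotl2, Ankrd1 and Myl9) both arrays without LIF read above both arrays with LIF, which held for 27.3% of tested genes. In 5 of these the change was also at least 1 on the log2 scale, against 7.36% of tested genes, and an unadjusted p of 0.05 or less with a higher level was reached by 6 members against 7.16% of tested genes. Compared array by array within each number, the changes of the members ranged from 0.35 to 2.69. Medians over all tested genes were 0.11 within number 1 and 0.06 within number 2. The share of tested genes with a change above 0 within both numbers was not counted. In bulk RNA more cells of a type and more RNA per cell cannot be told apart. All 9 genes exceeded the filter on low signal (a mean of 22.9) with the LIF arrays alone, so none was tested only because it was high without LIF.

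**Figure D1:**
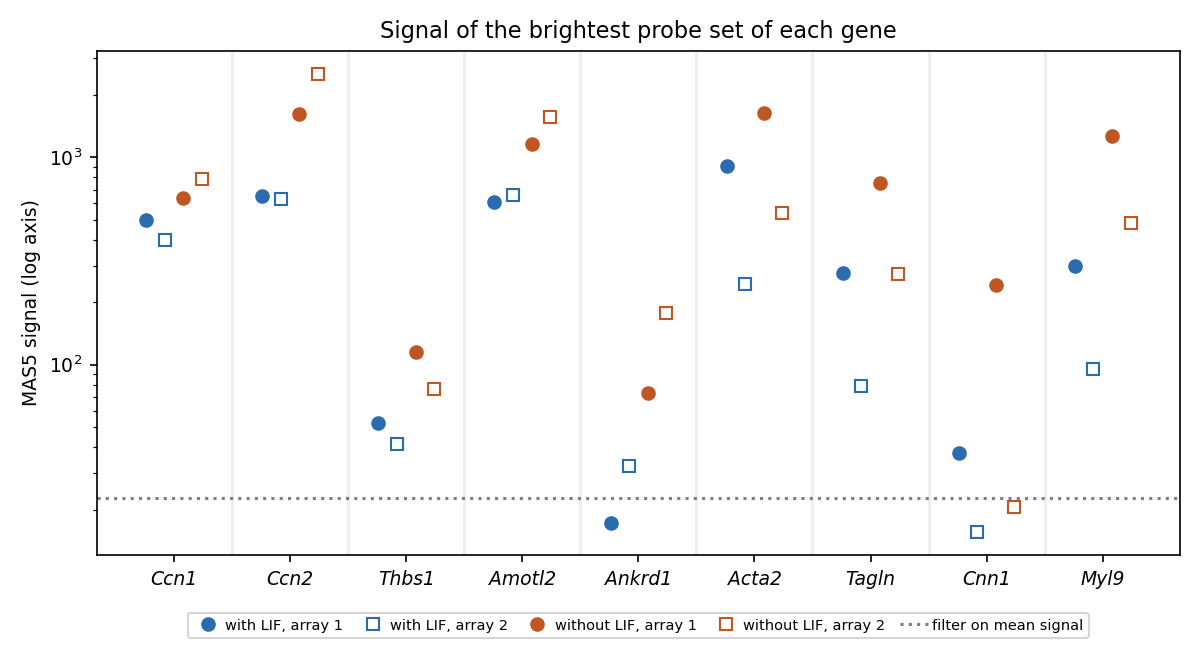
MAS5 signal (log axis) of the brightest probe set of each gene on each of the 4 arrays; circles are arrays numbered 1 and squares those numbered 2, blue with LIF and orange without, and the dotted line is the filter of 22.9. For Ccn1 to Ankrd1 and for Myl9 the orange points lie above both blue ones, while for Acta2, Tagln and Cnn1 the groups overlap and the arrays numbered 1 read higher.

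Promoters are shown because SRF and the TEAD factors act through known DNA elements, which can be looked for there. The RefSeq promoter table of build GRCm38.p6 held 6 of the 9 genes, and the 250 bases before the transcription start were searched on both strands for the CArG box, for a CArG-like element with 1 G or C inside the A and T run, and for the TEAD element GGAATG. Matches are in capitals in the 5 sequences below, which run 5′ to 3′ on the gene's strand, so that a TEAD element on the other strand appears as its reverse complement.
Ccn1, chr3:145649986-145650235, minus strand: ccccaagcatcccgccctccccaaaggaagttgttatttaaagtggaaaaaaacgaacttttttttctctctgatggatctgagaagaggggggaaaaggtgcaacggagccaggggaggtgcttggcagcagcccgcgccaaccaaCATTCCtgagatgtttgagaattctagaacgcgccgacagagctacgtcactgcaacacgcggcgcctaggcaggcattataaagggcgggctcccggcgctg
Amotl2, chr9:102717554-102717803, plus strand: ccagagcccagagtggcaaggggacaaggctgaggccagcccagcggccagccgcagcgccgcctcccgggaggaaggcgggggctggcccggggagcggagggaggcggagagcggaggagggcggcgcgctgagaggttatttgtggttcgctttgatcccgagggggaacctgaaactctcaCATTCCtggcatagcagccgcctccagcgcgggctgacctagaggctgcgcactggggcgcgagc
Ankrd1, chr19:36119845-36120094, minus strand: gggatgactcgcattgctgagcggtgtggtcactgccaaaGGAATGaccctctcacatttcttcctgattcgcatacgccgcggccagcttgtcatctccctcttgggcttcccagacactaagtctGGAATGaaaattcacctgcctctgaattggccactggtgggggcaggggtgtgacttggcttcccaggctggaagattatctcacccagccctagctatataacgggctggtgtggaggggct
Acta2, chr19:34255374-34255623, minus strand: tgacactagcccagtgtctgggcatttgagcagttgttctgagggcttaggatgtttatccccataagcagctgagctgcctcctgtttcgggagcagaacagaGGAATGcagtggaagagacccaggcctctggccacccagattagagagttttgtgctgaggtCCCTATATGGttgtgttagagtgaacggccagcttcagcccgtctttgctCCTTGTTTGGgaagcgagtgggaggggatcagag
Myl9, chr2:156775214-156775463, plus strand: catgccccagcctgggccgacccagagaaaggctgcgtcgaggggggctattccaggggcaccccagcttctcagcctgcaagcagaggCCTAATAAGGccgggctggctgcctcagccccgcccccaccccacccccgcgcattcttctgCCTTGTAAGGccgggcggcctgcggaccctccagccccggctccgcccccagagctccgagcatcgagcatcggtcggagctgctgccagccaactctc
A TEAD element was present in Ccn1 (first base at -103 from the start), Amotl2 (-65), Acta2 (-146) and Ankrd1, which had 2 (-210 and -123), and 12.64% of all promoter windows of this length held one. Myl9 held a CArG box, CCTAATAAGG, at -161, an element found in 1.47% of windows, and a CArG-like element, CCTTGTAAGG, at -99. Acta2 held 2 CArG-like elements, CCCTATATGG at -84 and CCTTGTTTGG at -34, and 7.24% of windows held at least 1. The Cnn1 window held none of the 3. None of the matches overlapped another. These are matches of letters, and the arrays measured no binding to them.

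Ccn1 and Ccn2 (also named Cyr61 and Ctgf) encode secreted matricellular proteins that bind integrins and growth factors. Ccn2 read 650.2 and 627.4 on arrays 1 and 2 of the LIF group, and 1623 and 2533.4 on those of the LIF-free group. Both arrays without LIF lay well above those with LIF, which differed little from each other. The means were 639 ± 16.1 and 2078 ± 644 (SD, n = 2), a log2 change of 1.67 (3.17-fold; SE 0.25; limma adjusted p = 0.070). The within-number changes were 1.32 and 2.01. The log2 change of Ccn2 was 1.69 on omitting array 1 of the LIF group and 1.64 on omitting array 2 of the LIF group. It was 1.99 on omitting array 1 of the LIF-free group and 1.35 on omitting array 2 of the LIF-free group. With either of these omitted the lone array is assumed to vary like the other group, and 2.1% and 3.43% of all tested genes passed.

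Ccn1 had 4 probe sets, and they differed from each other. The brightest, 1416039_x_at, read 500.6 and 401.7 under LIF and 636.7 and 789 without it, so the groups did not overlap but lay close. Its log2 change was 0.66 (1.58-fold; SE 0.24; limma adjusted p = 0.39), with within-number changes of 0.35 and 0.97. The suffix x marks probe sets whose probes may match other transcripts. The next, 1438133_a_at, read 179.1 and 211.1 under LIF and 132.3 and 626.3 without it, which is lower without LIF on the arrays numbered 1 and higher on those numbered 2. The remaining 2 probe sets read higher on array 1 than on array 2 in both groups. For 1457823_at the signals were 183.1 and 9.5 under LIF and 316.2 and 68.1 without it, and for 1442340_x_at they were 200.1, 35.5, 312.3 and 107.3 in the same order. Log2 changes of the 3 dimmer probe sets were 0.57, 1.12 and 1.81 from brightest to dimmest, each with overlapping groups.

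Thbs1, which encodes thrombospondin-1, a matricellular protein that activates latent TGF-beta, was dim. Its brighter probe set, 1450377_at, read 52.1 and 41.4 under LIF and 115.8 and 76.3 without it. The other, 1460302_at, read 56.5 and 13.5 under LIF and 111.8 and 77.7 without it. In both the groups did not overlap, and the second fell below the filter signal on array 2 with LIF. The log2 change of the brighter one was 1.02 (2.02-fold; SE 0.49; limma adjusted p = 0.52), with within-number changes of 1.15 and 0.88, and that of the other was 1.75.

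Amotl2 encodes an angiomotin, a scaffold that binds YAP and is itself raised by YAP as negative feedback. It read 611.6 and 655.6 under LIF and 1166.4 and 1557.7 without it. The arrays with LIF were alike and those without LIF were both higher. The means were 634 ± 31.1 and 1362 ± 277 (SD, n = 2), a log2 change of 1.09 (2.13-fold; SE 0.22; limma adjusted p = 0.13), and the within-number changes were 0.93 and 1.25. With each array left out, the change of Amotl2 ranged from 0.88 to 1.30.

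Ankrd1 encodes an ankyrin-repeat protein of the muscle sarcomere and nucleus, and is induced by stretch in heart muscle and by YAP in many cells. Its brighter probe set, 1420991_at, read 17.2 and 32.5 under LIF and 73 and 177.6 without it. The other, 1420992_at, read 31.4 and 14.5 under LIF and 83.5 and 173.9 without it. Each probe set therefore had 1 array with LIF below the filter signal, a different one in each, and both arrays without LIF stood above. Log2 changes were 2.27 (4.82-fold; SE 0.66; limma adjusted p = 0.27) and 2.50, with 2.09 and 2.45 within the numbers for the brighter one, and their sizes are uncertain because the level with LIF was near the floor of the assay.

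Myl9, the regulatory light chain of smooth muscle and non-muscle myosin, had one of the larger changes among the members. It read 300.3 and 95.8 under LIF and 1270.7 and 482.2 without it. Array 1 was higher than array 2 in each group, yet the lower array without LIF still lay above the higher one with LIF. The log2 change was 2.21 (4.62-fold; SE 0.63; limma adjusted p = 0.26), and the within-number changes were 2.08 and 2.33. Myl9 passed with each array brought to a common median (1.91, limma adjusted p = 0.035) and on omitting array 2 of the LIF-free group (2.91, limma adjusted p = 0.0042). It was 1.38 on omitting array 2 of the LIF group (limma adjusted p = 0.68), 1.51 on omitting array 1 of the LIF-free group (0.20) and 3.03 on omitting array 1 of the LIF group (0.085). Bringing the arrays to a common median moved the median of all tested genes to -0.20, and 0.907% of genes passed there.

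Tagln and Acta2 encode transgelin, an actin-binding protein, and smooth muscle alpha-actin. Tagln read 278.2 and 78.6 under LIF and 749.2 and 272.5 without it. Array 2 without LIF and array 1 with LIF had almost the same level, so the groups overlapped. The log2 change was 1.61 (3.06-fold; SE 0.68; limma adjusted p = 0.46), and the within-number changes were 1.43 and 1.79. Each omission of a single array moved this value. It was 0.70 on omitting array 2 of the LIF group (limma adjusted p = 0.998) and 0.88 on omitting array 1 of the LIF-free group (0.61). It was 2.52 on omitting array 1 of the LIF group (limma adjusted p = 0.18) and 2.34 on omitting array 2 of the LIF-free group, where it passed (0.028).

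Acta2 read 905.3 and 244 under LIF and 1628.6 and 540.5 without it in its bright probe set, 1416454_s_at. Array 1 with LIF stood above array 2 without LIF. The log2 change of 1.00 (2.00-fold; SE 0.69; limma adjusted p = 0.66) was smaller than the difference between the arrays of a group, and the within-number changes were 0.85 and 1.15. It was 0.05 on omitting array 2 of the LIF group, 0.20 on omitting array 1 of the LIF-free group, 1.94 on omitting array 1 of the LIF group and 1.79 on omitting array 2 of the LIF-free group. The suffix s marks probe sets that can match transcripts of more than 1 gene, and muscle actins are near-identical in coding sequence. The other Acta2 probe sets, 1456658_at and 1444105_at, had means below the filter and were not tested. They read 10.9 and 21.4 under LIF and 30.3 and 23.3 without it, and 2 and 1.3 under LIF and 26.6 and 8 without it.

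Cnn1, basic calponin of smooth muscle, read 37.5 and 15.6 under LIF and 241.8 and 20.6 without it. Array 1 without LIF alone was high, and both arrays numbered 2 were below the filter signal. The log2 change was 1.54 (SE 1.16; limma adjusted p = 0.69), made up of 2.69 on the arrays numbered 1 and 0.40 on those numbered 2. It was -0.23 on omitting array 1 of the LIF-free group and 3.32 on omitting array 2 of the LIF-free group, where it passed (limma adjusted p = 0.024), so 1 array decides its direction and size.

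**Figure D2:**
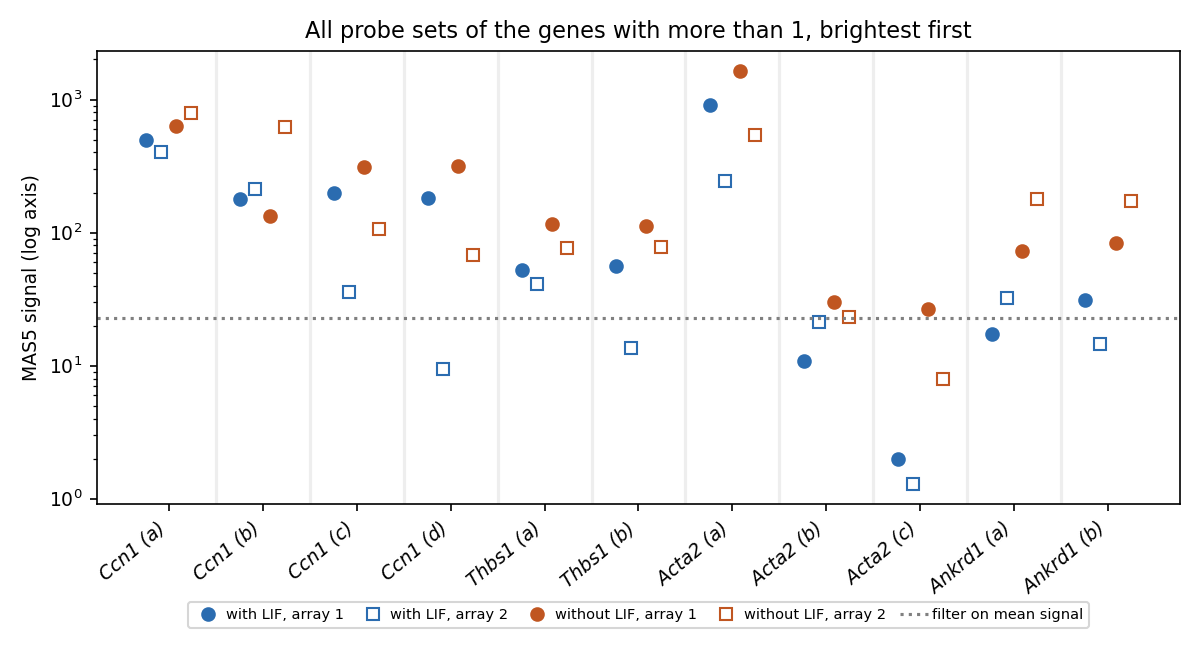
MAS5 signal (log axis) on the 4 arrays of every probe set of the 4 genes with more than 1, lettered from brightest to dimmest; symbols are as in the plot of gene signals. The Ccn1 probe sets disagree in which array is highest, both Ankrd1 probe sets are above the filter line on both arrays without LIF, and Acta2 is bright in only 1 of its 3.

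Over all 14 member probe sets that passed the filter, log2 changes were above 0 in each, and 58.7% of the 26405 tested probe sets had a change above 0. Groups did not overlap, with the higher level without LIF, in 8 of the 14, against 24.5% of tested probe sets. In the limma fit over every probe set 0 members passed, as did 0 of all probe sets, while 6 members had an unadjusted p of 0.05 or less with a higher level, against 4.88% of tested probe sets. Omitting array 2 of the LIF group left 12 of the 14 changes above 0, and omitting either array of the LIF-free group left 13.

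**Figure D3:**
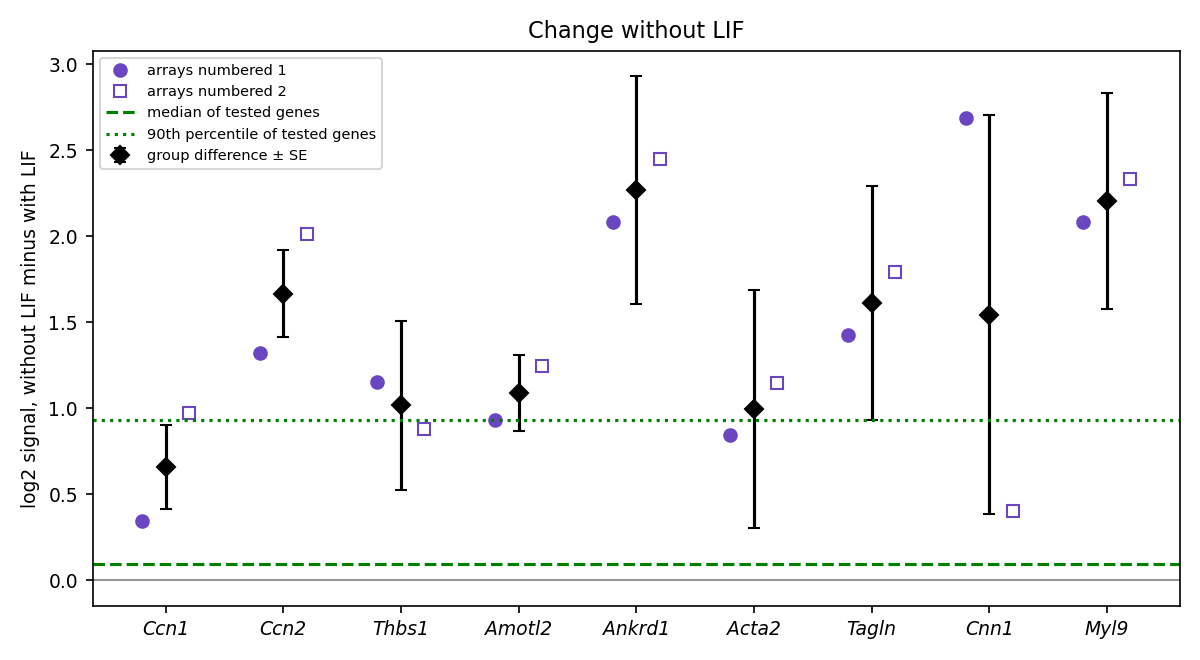
Log2 change without LIF of the brightest probe set of each gene, as the group difference with its limma standard error (diamonds), and within the arrays numbered 1 (circles) and 2 (squares); dashed and dotted lines are the median (0.09) and the 90th percentile (0.93) of tested genes. Every within-number value is above 0, and the standard errors of Acta2, Tagln, Cnn1, Myl9 and Ankrd1 are wider than those of Ccn1, Ccn2 and Amotl2.

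The members differed in how the arrays of a group related to each other. Acta2, Tagln, Cnn1 and Myl9, the contractile genes, were lower on array 2 than on array 1 in both groups. With LIF the difference on the log2 scale was -1.89 for Acta2, -1.82 for Tagln, -1.27 for Cnn1 and -1.65 for Myl9. Without LIF it was -1.59, -1.46, -3.55 and -1.40 in that order. A difference of at least 1 in this direction in both groups was found in 2.44% of tested genes. Ankrd1 and Amotl2 read the other way, higher on array 2 in both groups, by 0.92 and 1.28 for Ankrd1 and by 0.10 and 0.42 for Amotl2. Ccn1 and Ccn2 were slightly lower on array 2 with LIF (-0.32 and -0.05) and higher on it without LIF (0.31 and 0.64), and Thbs1 was lower on it in both (-0.33 and -0.60). Over all tested genes the medians of this difference were 0.03 and -0.04.

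**Figure D4:**
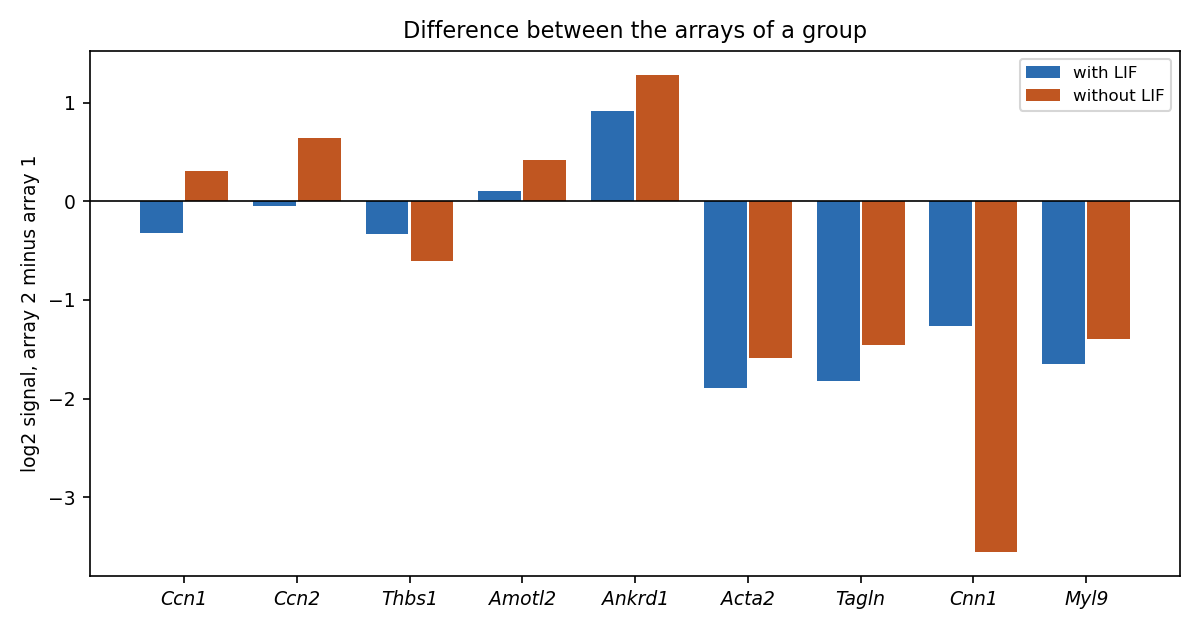
Difference in log2 signal between array 2 and array 1 of the same group for each gene, with LIF in blue and without LIF in orange. The bars of Acta2, Tagln, Cnn1 and Myl9 all reach below -1, and those of Ankrd1 and Amotl2 are above 0 in both groups.

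A list of endoderm markers read higher on the arrays numbered 2, the opposite of the contractile genes. The summed signal of its 11 members was 1937 and 5960.1 under LIF and 2317 and 16046 without it, with Cubn, a receptor of visceral endoderm, going from 262.3 and 477.2 on the arrays numbered 1 to 1447.4 and 6044.6 on those numbered 2. The median change of the list without LIF was 0.75, and 0 of its 11 members, all tested, rose or fell. Ttr, which encodes the carrier protein transthyretin, had the smallest p-value, at 2.8 and 31.4 under LIF and 98.5 and 995.7 without it. Its groups did not overlap (log2 change 5.06, limma adjusted p = 0.24), and 1 array with LIF was below the filter signal. The part of these markers in the member values was not tested.

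Markers of cell types that use these genes strongly were set beside them. Of 12 fibroblast and mesenchyme markers 11 had a probe set and 10 were tested, and 0 rose or fell. Their median change was 0.18, and their summed signal was 977 and 1060 under LIF and 1389 and 1468 without it. Collagen Col5a2 and the proteoglycan Dcn had log2 changes of 1.17 and 1.43 (limma adjusted p = 0.24 for each), while the changes of Col1a2 and Twist1 were 0.46 and 0.61 with overlapping groups. Those of Col1a1, Col3a1, Pdgfra, Pdgfrb, Thy1 and Postn were -0.06, 0.15, -0.04, 0.16, 0.21 and -0.09, with overlapping groups too. With LIF, array 2 minus array 1 on the log2 scale was -1.59, -1.39 and -1.55 for Col1a1, Col1a2 and Col3a1. Without LIF it was -2.01, -1.54 and -1.66, while Pdgfra went the other way (2.25 with LIF and 2.57 without LIF). Of 8 smooth muscle markers 4 were tested and 0 rose or fell, with a median change of 0.09 and sums of 717 and 589 under LIF and 946 and 721 without it. Myh11, the heavy chain that defines smooth muscle, had a mean below the filter and read 5.4 and 14.7 under LIF and 90.1 and 35.4 without it. Lmod1, also below the filter, read lower without LIF within each number (26.2 and 7.7 under LIF, 16.6 and 5.1 without it). Actg2 and Myocd, below the filter too, read 36.5, 3.4, 105.9 and 14.9, and 3.6, 1.3, 25.1 and 7.3, in the same order. Synpo2 had a change of 1.90 (limma adjusted p = 0.19), and Des, Smtn and Cspg4 had -0.39, 0.07 and 0.11. Of 10 heart muscle markers 9 were tested and 0 rose or fell, with a median change of 0.38 and sums of 1042 and 885 under LIF and 1590 and 1091 without it. The smallest p-value was that of Myl7, the atrial myosin light chain, which read 176.1 and 138.5 under LIF and 62.5 and 100.3 without it, lower without LIF with groups apart (-0.98, limma adjusted p = 0.46). Mef2c, a transcription factor of muscle, read 27 and 28.6 under LIF and 94.4 and 54.4 without it (1.37, limma adjusted p = 0.47). The changes of Tnni3, Myh6, Nkx2-5 and Tbx5 were -0.16, 0.15, 0.42 and 0.50, each with overlapping groups. Those of Myh7 and Myl2 were 0.36 and 0.38, with groups apart. Cardiac actin Actc1, a close relative of Acta2, read 170 and 73.6 under LIF and 599.4 and 162.5 without it, while Tnnt2, with a mean below the filter, read 14.3, 3.9, 49.7 and 32.1 in that order. Endothelium markers summed to 1591 and 1808 under LIF and 1053 and 1808 without it, with 0 calls among 6 tested and a median change of 0.44. Pecam1, an adhesion receptor, had the smallest p-value among them (-0.75, limma adjusted p = 0.37). It gave most of the sum on each array, at 1203.7 and 1206.4 under LIF and 563.6 and 914.4 without it. The changes of Cdh5, Kdr, Tek, Emcn and Esam were 0.56, 0.32, 0.66, 1.45 and -0.20. None of the markers on these lists was listed at 0, and the part of such cells in the member values was not tested. Of the 9 ES cell markers, all tested, Esrrb fell by 2.27 (limma adjusted p = 0.031) and 0 rose, the median change was -1.38, and all stayed above the filter signal on each array. Esrrb did not pass on omitting array 2 of the LIF group (limma adjusted p = 0.15), with quantile normalization (0.080), without the trend in eBayes (0.29) or with the mean of probe sets (0.055).

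The regulators of the 2 routes were examined from lists of their components. Of 20 Hippo pathway genes 18 were tested, 0 rose and 0 fell, and the median log2 change was 0.15. Ptpn14, a phosphatase that binds YAP and is also a YAP target, read 453.7 and 414.9 under LIF and 906.6 and 1266.5 without it, a change of 1.30 (SE 0.24; limma adjusted p = 0.11). Lats1, a kinase of YAP, had a change of 0.57 (limma adjusted p = 0.47), and the scaffold Amot one of 1.62 (limma adjusted p = 0.51), with the arrays numbered 2 much higher in both groups (739 against 222.4 with LIF and 2610.8 against 593.1 without LIF). Tead4 was lower, at 68 and 61.2 under LIF and 23.2 and 38.2 without it (-1.12, limma adjusted p = 0.55). Yap1 itself read 3268.5 and 3020.5 under LIF and 3191.1 and 3381.1 without it, a change of 0.06 (SE 0.17; limma adjusted p = 0.92).

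Of 20 SRF, MRTF and actin-control genes 18 were tested, 0 rose and 0 fell, and the median change was 0.09, close to that over all genes. Srf read 480.6 and 447.9 under LIF and 783.6 and 741.1 without it, a tight pair in each group and a change of 0.72 (SE 0.21; limma adjusted p = 0.28). Mrtfb had a change of 0.41 (limma adjusted p = 0.50), and Limk2, which phosphorylates cofilin, one of -0.67 (limma adjusted p = 0.40).

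Further targets of both routes had positive medians. Of 21 other YAP targets 20 were tested, 0 rose and 0 fell. Their median change was 0.47, and in 10 the groups did not overlap with the higher level without LIF (27.3% of all tested genes did so), against 0 in the other direction (15.2% of all). After Ptpn14, which is on this list too, the smallest p-values belonged to Fjx1, a relative of the fly Golgi kinase four-jointed (86.1 and 68 under LIF, 185.7 and 208.2 without it; change 1.36, limma adjusted p = 0.22), Nt5e, the ecto-enzyme CD73 (1.84, limma adjusted p = 0.34), and the kinase Nuak2 (1.04, limma adjusted p = 0.49). Of 26 other SRF-MRTF targets 22 were tested, 0 rose and 0 fell, with a median of 0.52 and groups apart in 11 upwards and 2 downwards. Zyx, the focal adhesion protein zyxin, read 353.5 and 233 under LIF and 939.6 and 668.7 without it (1.47, SE 0.30; limma adjusted p = 0.13). Csrp1, a LIM protein of smooth muscle, had a change of 0.76 (limma adjusted p = 0.25) and the tropomyosin Tpm4 one of 0.62 (limma adjusted p = 0.30), while Synpo2 is given above.

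Relatives of the members did not all read the same way. Of 10 tested relatives of the actins, transgelin, calponin and Ankrd1, 0 rose and 0 fell, with a median of 0.05. Actc1 and Acta1, the striated muscle actins, had changes of 1.48 and 1.59 (limma adjusted p = 0.49 and 0.61) with the arrays numbered 1 higher in each group, as in Acta2. Acta1 read 197.9 and 29.2 under LIF and 473.2 and 110.3 without it. Cnn2, another calponin, had a change of 0.88 (limma adjusted p = 0.59) and the same array pattern, with 1205.2 and 421.9 under LIF and 1812.3 and 949.8 without it. Ankrd23 had a change of 1.06 (limma adjusted p = 0.49). Among 6 tested relatives of the CCN and thrombospondin genes, of which 0 rose or fell, Thbs3 had a change of 1.37 (limma adjusted p = 0.26), Comp 0.97, Ccn3 1.06 and Ccn5 -0.71, and the median was 0.62.

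Of 12 genes of myosin II and of its light chain control, all tested, 0 rose and 0 fell, and the median was 0.05. Mylk, the kinase that phosphorylates the light chain encoded by Myl9, read 45.3 and 39.7 under LIF and 127 and 113.4 without it, a change of 1.50 (SE 0.45; limma adjusted p = 0.28). Myh10, a non-muscle heavy chain, had a change of 0.59 (limma adjusted p = 0.26), Cdc42bpa 0.82 (limma adjusted p = 0.42) and Myh14 -0.45 (limma adjusted p = 0.68). Of 10 tested genes of TGF-beta signalling, of which Ccn2 is also a target, 0 rose and 0 fell and the median was 0.39. Skil and Tgfbi had changes of 1.11 and 0.92 (limma adjusted p = 0.13 and 0.32), and Smad7 and Bhlhe40 had -0.90 and -0.66 (0.24 and 0.47). SRF also acts with ternary complex factors on immediate early genes. Their list holds such genes and the factors Elk1, Elk3 and Elk4. Of its 10 tested genes 0 rose and 0 fell, and the median was 0.15. The smallest p-values belonged to genes lower without LIF. These were Junb (-1.67, limma adjusted p = 0.22), Ier2 (-0.57, limma adjusted p = 0.26) and the factor Elk3 (-0.93, limma adjusted p = 0.33). Egr1 came next (0.94, limma adjusted p = 0.49).

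**Figure D5:**
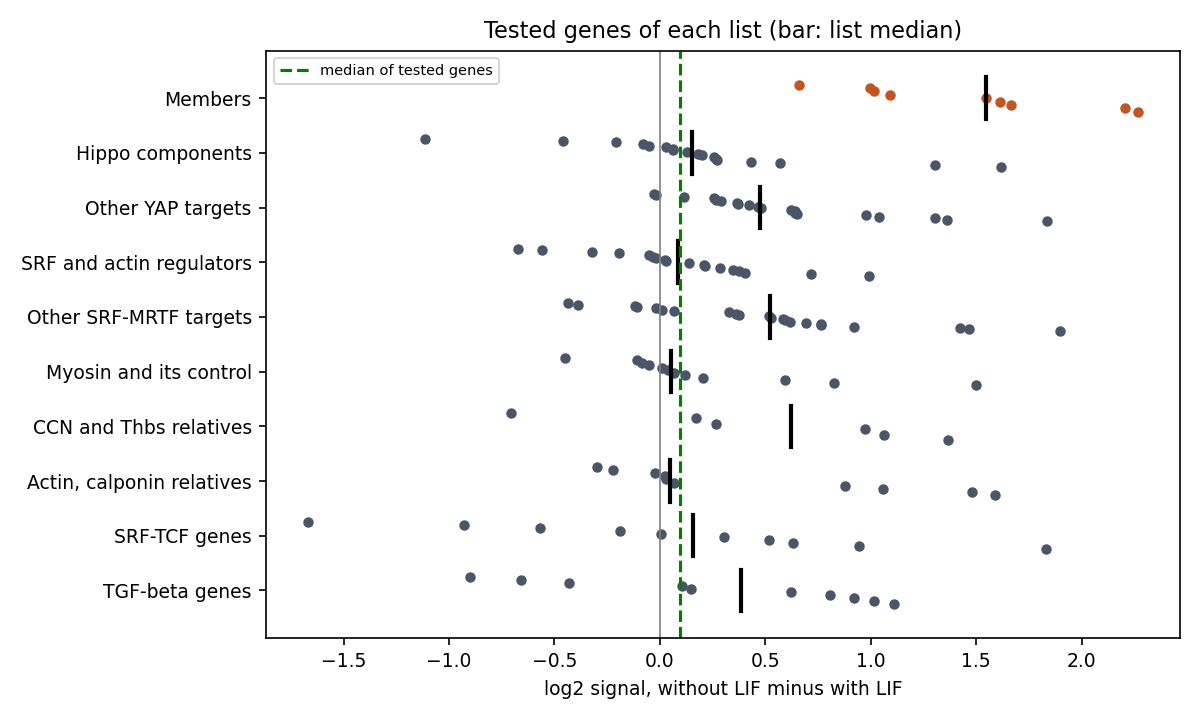
Log2 change without LIF of each tested gene (points) in the members and in 9 lists of related genes, with list medians as black bars and the median of all tested genes as a dashed line. Members lie between 0.66 and 2.27, the other YAP and SRF-MRTF targets have medians of 0.47 and 0.52, and the component lists have medians of 0.15 and 0.09.

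The mean profile of the members, each centred on its own mean, was -0.38 and -1.08 for arrays 1 and 2 under LIF, and 1.06 and 0.40 without it. Tested genes were ranked by Euclidean distance to this profile over the 4 arrays, on centred log2 signals. Members and genes with clone or predicted names were left out. The nearest were Lhpp (0.12), Hdac9 (0.12), Lpar6 (0.12), Lmo4 (0.13) and Zyx (0.14), against a median distance of 1.62 over the genes ranked. The profile averages members whose arrays differed in opposite directions, such as Myl9 and Ankrd1, so a gene near it need not resemble any single member. Zyx is on the list of SRF-MRTF targets. None of the 5 passed the test.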

How the data were processed

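Transcripts were measured on 4 arrays. The values are linear MAS5 signal intensities, which the authors scaled per array: MAS5 is named in the submitters' processing notes, and the trimmed mean was 500.003 to 500.004 on each array. Its version and the genome build are not given in the sources used here. Of 45101 probe sets, 34945 carried 1 gene symbol; 34741 of them matched RefSeq by Entrez identifier, which changed 0 symbols. A single value of 0 was set to the smallest positive value. The probe set of highest mean log2 signal stood for its gene, and a gene was tested if that mean exceeded the 30th percentile (4.51) over all non-control probe sets. limma 3.58.1 in R 4.3.3 (lmFit, eBayes with trend) compared the groups with no other term, on 2 residual degrees of freedom, two-sided, with adjustment by Benjamini-Hochberg at 0.05. The fit was checked on data simulated with independent arrays, so the check did not cover deviations shared by same-numbered arrays. The number of arrays limits the precision.

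Members and lists were chosen with earlier results of these data known. Named are all members, up to 4 genes per list of related genes by smallest p, and the 5 nearest genes; the result of 1 gene so selected is not reported here. Yap1 and all genes named from cell type marker lists were named after their values were seen. At most 127 probe sets had equal values on any pair of arrays. Alternatives covered the filter, pseudocount, normalization, eBayes settings, probe set choice, the replicate number as a block, and omission of each array; within-number changes were an addition made with the values in view. Figures used matplotlib 3.10.9 in Python 3.11.15.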

Additional observations from a re-analysis of the deposited data

Results flagged for a closer look

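A probe set outside the comparison, 1421811_at, carries the symbols of Thbs1 and Pald1 and so was not assigned to either. It read 193.4 and 63.7 under LIF and 438.9 and 273.5 without it, with means of 129 and 356.2, and the arrays without LIF lay above both with LIF. The log2 difference was 1.64, beside 1.02 and 1.75 for the Thbs1 probe sets with a single symbol. It stands here because its level without LIF exceeds that with LIF in data that the comparison did not use, and which transcript it measures was not tested.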

How the results depend on the processing

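All 9 members kept a log2 change above 0 under every alternative in which they were tested, except Cnn1, which read -0.23 on omitting array 1 of the LIF-free group (3.32 on omitting array 2 of that group). The median of the members (1.54) ranged from 0.88 to 1.81 with each array left out, and was 1.25 with a common median per array. The common median shifts the change of every gene by the same amount, so all 9 changes were smaller with it than in the main fit. The limma adjusted p there was 0.22 for Ccn2, 0.78 for Amotl2, 0.92 for Acta2 and 0.31 for Tagln. The count of member genes past the threshold, 0, was 1 with a common median per array (Myl9), and 0 to 4 with each array left out. With the replicate number as a block it was 6 (limma adjusted p = 0.00052 for Ccn2, 0.0084 for Acta2, 0.0033 for Tagln, 0.00028 for Myl9, 0.0033 for Amotl2 and 0.039 for Ankrd1, where 6.75% of tested genes passed), and 5 with the block and quantile normalization (all but Ankrd1, with 4.78% of genes). Of the 14 member probe sets 7 and 5 passed in these block fits, where 1412 and 1038 of the 26405 tested probe sets passed. Deviations of same-numbered arrays correlated at 0.29 over genes, but the labels do not say what the numbers stand for and there are only 2 pairs, so the numbers were not treated as pairs. Ccn1, Thbs1 and Cnn1 did not pass with the block (0.095, 0.27 and 0.27). Over all genes the 21 calls became 41 with the filter at the 50th percentile, 51 with a pseudocount of 14.3, 10 with quantile normalization, 131 with a common median, 0 with eBayes without trend, 52 with robust eBayes, 12 with the mean of probe sets, 975 with the block and 690 with the block and quantile normalization, and 7 to 496 with each array left out. The cause of these shifts was not tested. Without trend 1589 genes, 5 members among them, had an unadjusted p of 0.05 or less. Signals near the filter limit Cnn1, Ankrd1 and Thbs1.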
